A study of Mus musculus with 4 samples.

Results

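Alveolar fibroblasts of hypoxic mouse lung were taken from 4 single-cell RNA libraries by the genes each cell barcode showed, and 1710 of 44835 kept barcodes met the rule. A barcode was kept with at least 500 detected genes, at least 1000 unique molecular identifiers (UMIs, counted RNA molecules) and under 15% of UMIs from mitochondrial genes. A kept barcode was taken as an alveolar fibroblast when at least 3 of the 6 genes Tcf21, Npnt, Itga8, Col13a1, Slc7a10 and Scube2 had a UMI. It also had to show fewer than 2 of the 4 adventitial fibroblast genes Pi16, Dpt, Col14a1 and Clec3b, and fewer than 2 of the 3 myofibroblast genes Aspn, Hhip and Lgr6. At most 1 UMI of the endothelial genes Cdh5 and Cldn5 together was allowed, and no UMI of Ptprc (leukocytes) or Epcam (epithelium). Since these genes chose the cells, their levels are descriptions and were not tested.

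Alveolar fibroblasts lie in the thin wall of the alveolus, next to the alveolar epithelium and the capillaries. They lay down the collagen, elastin and basement membrane of the wall, store and hand on lipid and retinoids, and secrete ligands that alveolar epithelium and capillary endothelium need. They are distinct from the adventitial fibroblasts of the cuffs around airways and large vessels, and from the contractile myofibroblasts and smooth muscle cells of ducts, airways and arteries.

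The libraries came from WT mice and from Vegfr2Y949F mice, called mutants below, all on the C57BL/6J background, 6 to 8 weeks old and kept in hypoxia for 6 weeks. The allele puts phenylalanine in place of a tyrosine in VEGFR2, the VEGF-A receptor encoded by Kdr. Libraries came in sets A and B with 1 of each genotype in a set, and the suspension behind a library was a pool from 2 mice. Hypoxia was shared by both genotypes, normoxic libraries were not analysed here, and the labels give neither the meaning of the set letter nor the sex of the mice. Any p-value below therefore rests on 2 pools per genotype. For single genes, edgeR's quasi-likelihood test also draws on the spread of the other genes tested.

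The libraries held 83606389 to 96521589 UMIs over 11992 to 15160 deposited barcodes, of which 10113 to 12441 were kept. Alveolar fibroblasts had a median of 4985.5 to 6353 UMIs each, and their summed counts per library were 2420035 to 2828578 UMIs. Pairs of libraries shared 43 to 70 deposited barcodes, and no barcode was shared between the alveolar fibroblasts of any pair. Of the alveolar fibroblasts, 6 to 16 per library fell in the highest 8% of the library's doublet scores. Xist (452 to 648 CPM, the summed count of a gene scaled to a common library total) and the Y-linked Ddx3y (90.8 to 103 CPM) were both read in alveolar fibroblasts of every library.

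The cells also expressed alveolar fibroblast genes that the rule did not use. All 18 genes of a list of alveolar fibroblast genes that the rule did not use passed the filter on low counts. The most abundant was Inmt, a methyltransferase of indole amines, at 9152 CPM in WT A, 6447 in WT B, 8707 in mutant A and 7279 in mutant B. Next came Mfap4, a microfibril-associated glycoprotein, at 7723, 5994, 4206 and 5849 CPM in the same order. Pdgfra, the receptor for PDGF-A, stood at 1107, 915, 1493 and 1015 CPM. Inmt had a UMI in 93.1% to 96.9% of the cells of each library. Endothelial RNA was low. The 10 endothelial markers summed to 271 to 409 CPM in alveolar fibroblasts and to 12707 to 14110 CPM in barcodes gated as endothelial. Among the 10 are Cdh5 and Cldn5, which the rule limits and the endothelial gate requires, so this gap follows in part from the choice of cells. Leukocyte markers (8 genes, among them Ptprc, which the rule excludes) summed to 72.5 to 122 CPM. Smooth muscle and pericyte genes were also read, in a small share of the cells described further on.

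Within the rule, Npnt, which encodes the basement membrane protein nephronectin, had the highest level, at 3031 CPM in WT A, 2156 in WT B, 3017 in mutant A and 2366 in mutant B. Its receptor subunit Itga8 stood at 838, 731, 945 and 780 CPM, and the mesenchymal transcription factor Tcf21 at 816, 1005, 620 and 990 CPM. Col13a1, a membrane-spanning collagen, had 436, 379, 388 and 385 CPM. Scube2, a secreted protein of hedgehog signalling, stood at 316, 238, 266 and 304 CPM, and the amino acid transporter Slc7a10 at 131, 120, 134 and 174 CPM. None of these genes put both mutant libraries on one side of both WT libraries except Slc7a10, where they lay above. Of all tested genes, 14.6% lay above in this way and 11.4% below.

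Cells just inside and just outside the threshold differed in depth and in the other alveolar genes. Cells with exactly 3 of the 6 genes numbered 88 to 113 per library, with a median of 1943 to 2559 UMIs, and held 3018 to 6394 CPM of Inmt and 315 to 881 CPM of Pdgfra. Cells with 2 of the 6 that met every other condition numbered 153 to 173, had medians of 2640 to 3770.5 UMIs, and held 1157 to 1804 CPM of Inmt and 86.2 to 258 CPM of Pdgfra. Cells with all 6 genes numbered 107 to 138 per library and had median depths of 8040 to 11519 UMIs.

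The adventitial exclusion removed many deep cells that met every other condition. It alone took out 480 barcodes in WT A, 418 in WT B, 315 in mutant A and 653 in mutant B, with medians of 9326 to 12305.5 UMIs. Of the removed barcodes of WT A, 94.4% had a UMI of Dpt and 98.3% of Clec3b, while 6.04% had one of Pi16. The adventitial gate of the same library, with at least 3 of the 4 genes, had Pi16 in 92.6% of its barcodes. In endothelial barcodes of WT A, where these genes are background, the shares were 1.70% for Dpt, 1.81% for Clec3b and 1.96% for Pi16. Dermatopontin (Dpt) binds collagen and Clec3b encodes the plasminogen-binding protein tetranectin. Within the alveolar fibroblasts of WT A, 25.2% still had a UMI of Dpt and 45.5% one of Clec3b, and their median depth of 5450 UMIs lay under the 9768.5 of the removed barcodes.

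Alveolar fibroblasts made up 3.66% of kept barcodes in WT A (429 cells, 95% Wilson interval 3.34 to 4.02%), 3.29% in WT B (347 cells, 2.96 to 3.64%), 3.65% in mutant A (454 cells, 3.33 to 3.99%) and 4.75% in mutant B (480 cells, 4.35 to 5.18%). The intervals cover counting error only. Mutant B stood highest, and mutant A lay between both WT libraries. The means were 3.47% ± 0.265 (SD, n = 2) in WT and 4.20% ± 0.776 (SD, n = 2) in mutants, and the difference did not exceed the spread (two-sided exact permutation test, p = 0.667). With cells thinned to 1000 UMIs before the rule was applied, the shares were 4.39% and 4.02% in WT and 3.53% and 5.61% in mutants. The level of the shares depended on the adventitial exclusion. Without it, an alternative chosen after the results were seen, they were 7.76% in WT A, 7.24% in WT B, 6.18% in mutant A and 11.2% in mutant B. In each of these settings mutant A lay below both WT libraries and mutant B above them.

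**Figure D1:**
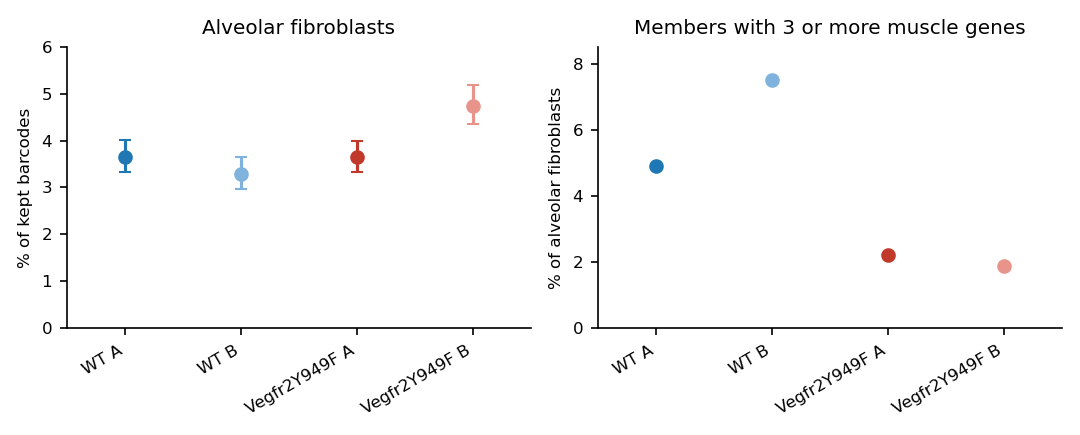
Left, alveolar fibroblasts as a percentage of kept barcodes in each library, with 95% Wilson intervals as bars; right, the percentage of alveolar fibroblasts with UMIs of at least 3 of 6 smooth muscle genes. Mutant A lies within the WT range on the left, and both mutant libraries (2.20% and 1.88%) lie under both WT libraries (4.90% and 7.49%) on the right.

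The genes that set alveolar fibroblasts apart from the other stromal gates were ranked by the lowest library level in alveolar fibroblasts over the highest library level in the adventitial (245 cells) and myofibroblast (115 cells) gates. This is a description, because the cells were chosen by expression and the other gates are small. The myofibroblast gate summed to 103625 to 168734 UMIs per library and the adventitial gate to 329524 to 652196. Levels of a few CPM there, and the ratios and ranks built on them, therefore rest on few UMIs. Of 1559 genes outside the rule with a mean of at least 100 CPM, 283 had every alveolar library above every library of those gates, and 83 of them by more than 2-fold. Colq, the collagen-like tail that anchors acetylcholinesterase, ranked first, with 139 to 184 CPM in alveolar fibroblasts and at most 1.53 CPM in any library of those gates. Upk1b, a tetraspanin, had 216 to 303 CPM against at most 5.93. Nebl, an actin-binding protein of the nebulin family, had 368 to 491 against at most 10.1, and Scn3a, a voltage-gated sodium channel, had 249 to 335 against at most 9.10. Fgfr4, a receptor for FGFs, followed with 81.0 to 121 CPM against at most 5.93.

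Of the next 10 genes, 5 encode metabolic enzymes. Cdo1, which oxidises cysteine, had 975 to 1085 CPM in alveolar fibroblasts and at most 88.1 in those gates. Ces1d, a carboxylesterase that hydrolyses triglyceride, had 723 to 894 CPM against at most 80.8. Gyg, the primer of glycogen synthesis, had 496 to 606 against at most 51.6. Aldh1a1, which oxidises retinaldehyde to retinoic acid, had 1519 to 2398 against at most 203, and Lrat, which makes retinyl esters for storage, had 128 to 226 against at most 18.4. Trf (transferrin, 374 to 435 CPM), the amino acid transporter Slc38a5 (166 to 213), the cyclic GMP-dependent kinase Prkg2 (113 to 213) and the membrane peptidase Mme (264 to 366) completed it together with Spp1. The rank of Spp1 rests on few cells, as it had a UMI in only 2.08% to 5.07% of alveolar fibroblasts per library. Part of its UMIs lay in the cells with smooth muscle genes described further on.

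Against all other kept barcodes, Cdo1 ranked first (at most 111 CPM there) and 6 genes stood among the first 15 of both orders: Cdo1, Colq, Upk1b, Scn3a, Fgfr4 and Slc38a5. Genes that entered only by this second measure included the secreted BMP antagonist Chrdl1 (103 to 192 CPM against at most 13.5), Inmt, Pdgfra and the matrix proteins Spon1 (702 to 1034 against at most 102) and Prelp (1079 to 1359 against at most 160). Vegfd, a ligand of VEGF receptors best known for lymphatic vessels, had 376 CPM in WT A, 329 in WT B, 330 in mutant A and 386 in mutant B, and at most 48.9 CPM in all other barcodes. The calcium channel gene Cacna1d (204 to 316 CPM), Ms4a4d (245 to 360) and 1810010H24Rik (162 to 176) were the others. All other kept barcodes include those that only the adventitial exclusion removed, which met every other condition of the rule. These numbered 480 in WT A, 418 in WT B, 315 in mutant A and 653 in mutant B. Their part in the levels of these genes outside alveolar fibroblasts was not tested.

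**Figure D2:**
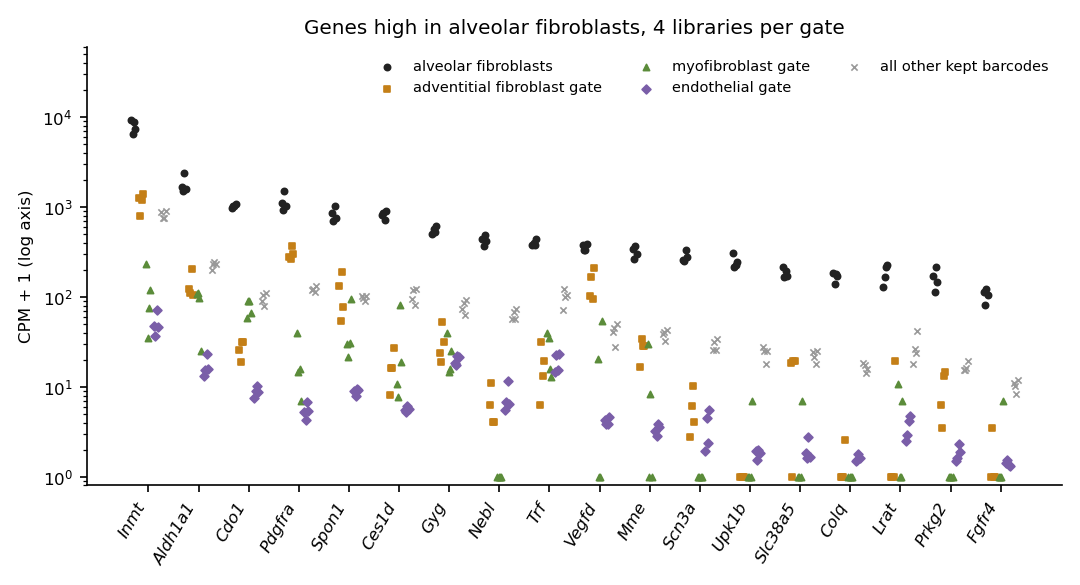
Levels of 18 genes high in alveolar fibroblasts, as CPM + 1 on a log axis; each point is 1 of 4 libraries, and the symbols mark the gates. For Colq, Upk1b, Nebl and Scn3a every library of alveolar fibroblasts lies at least 27.3-fold above every adventitial and myofibroblast library, while Inmt and Pdgfra are also read in adventitial cells. The adventitial and myofibroblast gates are small, so fold values over their lowest levels rest on few UMIs.

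The genotypes differed in 12 of 10443 genes tested in alveolar fibroblasts (edgeR's quasi-likelihood test on counts summed per library, Benjamini-Hochberg adjusted p under 0.05), which is 0.115% of them. Of the 12 genes, 4 were higher in mutants (0.0383%) and 8 lower (0.0766%). The lower genes were mostly of the contractile apparatus of smooth muscle, and 3 of the higher genes encode haemoglobin. At an unadjusted p under 0.05 there were 221 genes (2.12%). Both mutant libraries lay above both WT libraries for 14.6% of all tested genes and below them for 11.4%. The count depended on single libraries: without WT A edgeR called 0 genes (176 at an unadjusted p under 0.05), and it called 19 when WT B was left out, 35 when mutant A was left out and 29 when mutant B was left out.

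Acta2, smooth muscle alpha-actin, had 165 CPM in WT A and 207 in WT B, against 37.1 in mutant A and 43.8 in mutant B, so that the groups did not overlap (log2 fold change -2.23, SE 0.23, edgeR adjusted p = 0.00164). Myh11, smooth muscle myosin heavy chain, had 66.1 and 90.9 CPM in WT and 16.3 and 14.8 in mutants (-2.37, SE 0.25, adjusted p = 0.00164). Both genes are defining products of smooth muscle and are also read in pericytes and myofibroblasts. The actin-binding Lmod1 stood at 25.1 and 29.8 CPM in WT and 7.58 and 5.66 in mutants (-2.08, SE 0.30, adjusted p = 0.0118), and beta-tropomyosin Tpm2 at 86.0 and 170 against 36.4 and 39.6 CPM (-1.79, SE 0.29, adjusted p = 0.0319). Actg2, enteric smooth muscle actin, had 18 and 32 UMIs in WT and 2 and 1 in mutants (adjusted p = 0.0319).

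Mustn1, a small nuclear protein of muscle and skeletal tissue, had 60.5 and 97.5 CPM in WT and 20.1 and 23 in mutants (-1.90, SE 0.27, edgeR adjusted p = 0.0118). S100a4, a calcium-binding protein, had 32.3 and 39.7 CPM against 9.85 and 10.3 (-1.87, SE 0.27, adjusted p = 0.0118). The synuclein Sncg had 13.9 and 21.9 CPM against 1.90 and 0.707 (-3.79, SE 0.50, adjusted p = 0.00931). For all 8 genes both mutant libraries lay below both WT libraries.

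Several of these transcripts sat largely in a few of the cells. Barcodes with UMIs of at least 3 of the 6 smooth muscle genes Myh11, Acta2, Cnn1, Actg2, Lmod1 and Des numbered 66 of the 1710: 21 in WT A (4.90%), 26 in WT B (7.49%), 10 in mutant A (2.20%) and 9 in mutant B (1.88%). The means were 6.19% ± 1.84 (SD, n = 2) in WT and 2.04% ± 0.232 (SD, n = 2) in mutants, and both mutants lay below both WT libraries, which in a two-sided exact permutation test of 2 against 2 libraries gives the smallest p possible, one that cannot pass a threshold of 0.05. The 66 cells held 94.2% of all Acta2 UMIs in WT A, 96.2% in WT B, 70.4% in mutant A and 66.1% in mutant B. They held 76.2% to 96.4% of Myh11 and 81.2% to 95.8% of Lmod1, and, outside the 6 genes, 80.0% to 100% of Sncg. Their share was smaller in mutants for Mustn1 (78.9% and 80.1% in WT A and B, 37.7% and 24.6% in mutants A and B), S100a4 (84.0% and 88.5% in WT, 13 of 26 UMIs and 2 of 29 in mutants) and Tpm2 (68.1% and 73.1% in WT, 38.5% and 25.9% in mutants). Tpm2 was read in 11.9% to 29.1% of all members. Most alveolar fibroblasts, 59.7% to 67.1% per library, had no UMI of any of the 6.

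The 66 cells differed from the other members in several alveolar genes. Exactly 3 of the 6 alveolar genes were detected in 54 of them, and in 347 of the other 1644. In WT A, Tcf21, Npnt and Itga8 each had a UMI in 95.2% of these cells, but Scube2 in 4.76% and Slc7a10 in 0 of 21, against 72.3% and 45.3% of the others. Their Inmt level was 17.2 CPM in WT A, 199 in WT B, 459 in mutant A and 0 in mutant B, against 7107 to 9596 CPM in the others. Col1a1, a fibrillar collagen chain, was closer, at 352, 364, 214 and 391 CPM in WT A, WT B, mutant A and mutant B against 655, 641, 615 and 538 in the others. Of the 66, 60 also had UMIs of at least 3 of the 6 pericyte genes Cox4i2, Higd1b, Notch3, Trpc6, Cspg4 and Postn. The data therefore go against the alveolar fibroblast label for these cells, which are called members with muscle genes below. Over all members, at least 3 pericyte genes had UMIs in 26 cells of WT A, 31 of WT B, 20 of mutant A and 18 of mutant B. Of these, 20, 23, 8 and 9 were among the 66, and the others stay in when only the members with muscle genes are left out.

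Without the members with muscle genes, an alternative chosen after the results were seen, edgeR called 1 gene, Hbb-bs, and no muscle gene. As 4 of the 8 lower genes were used to set these cells aside, a smaller difference in those 4 follows in part from the choice. The log2 fold change of Acta2 was then 0.46 (SE 0.34) and that of S100a4, which was not used in the choice, was 0.47 (SE 0.47). Both were opposite in sign to their values over all members, but with such SEs the direction is uncertain. Tpm2 (-0.62, SE 0.30) and Mustn1 (-0.22), also not used in the choice, kept values below 0, and none of these 4 passed the test. Without every member that had at least 3 muscle genes, at least 3 pericyte genes or at least 1% haemoglobin UMIs, edgeR called 0 of 10174 genes (171 at an unadjusted p under 0.05). Over all members the 6 smooth muscle markers summed to 380 and 576 CPM in WT and 175 and 191 in mutants, and without those members to 75.4 and 102 in WT and 101 and 111 in mutants. The 6 pericyte markers summed to 488 to 933 CPM over all members and to 7.41 to 18.5 CPM without those. As the members left out were chosen by these same muscle and pericyte markers, the lower sums follow in part from the choice.

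The same muscle genes were looked for in every barcode that met the endothelial, leukocyte and epithelial exclusions. At least 3 of the 6 were found in 162 barcodes of WT A (1.38% of kept barcodes), 170 of WT B (1.61%), 106 of mutant A (0.852%) and 123 of mutant B (1.22%), and here too both mutants lay below both WT libraries. Whether fewer such cells were present or fewer were captured cannot be told apart in these data.

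**Figure D3:**
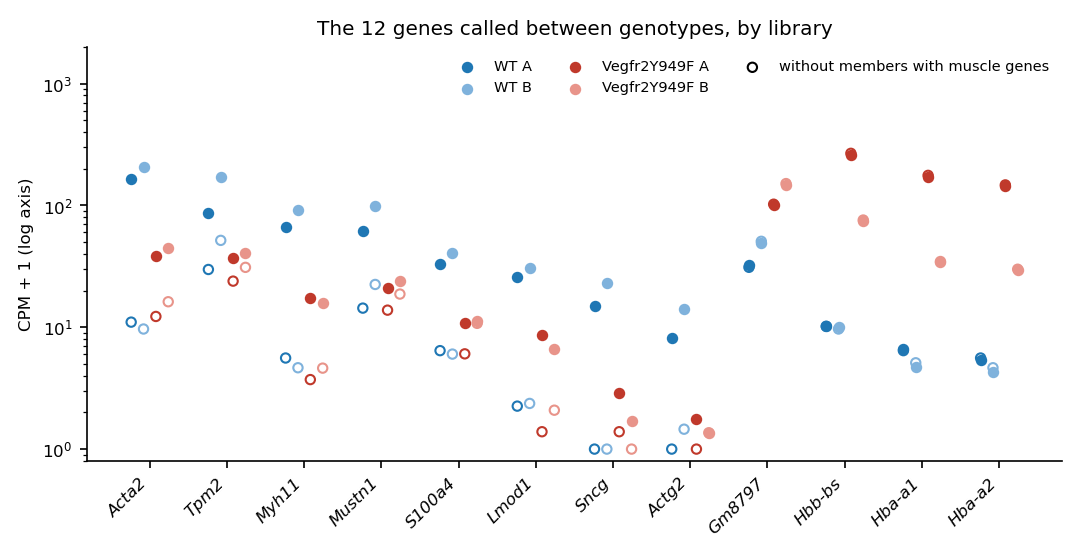
Levels of the 12 genes called between genotypes in alveolar fibroblasts, as CPM + 1 on a log axis; filled circles are all members of a library, and open circles the same library without members with muscle genes. In the open circles Acta2 stands at 10.0 and 8.68 CPM in WT and 11.3 and 15.2 in mutants, while the WT (blue) and mutant (red) circles of Gm8797 and the haemoglobin genes stay apart.

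The haemoglobin genes were higher in mutants through 2 cells. Hbb-bs, the adult beta-globin, had 9.16 CPM in WT A and 9.09 in WT B, and 261 in mutant A and 73.9 in mutant B (log2 fold change 4.13, SE 0.48, edgeR adjusted p = 0.00297). The alpha-globins Hba-a1 (4.38, SE 0.64) and Hba-a2 (4.40, SE 0.64) passed as well, each at an adjusted p of 0.0118. A single barcode held 643 of the 688 Hbb-bs UMIs of mutant A, and a single barcode 194 of the 209 of mutant B. Without these 2 barcodes, the only members with at least 1% haemoglobin UMIs, edgeR called 6 genes, all lower in mutants.

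Gm8797 was the other higher gene, and its difference was spread over many cells and other cell types. It had 31.5 CPM in WT A, 48.3 in WT B, 100 in mutant A and 147 in mutant B, with no overlap (log2 fold change 1.61, SE 0.27, edgeR adjusted p = 0.0384). It had a UMI in 15.6% and 23.3% of the cells in WT and in 25.6% and 28.5% in mutants, and the top single cell held at most 16 of a library's UMIs. Without members with muscle, pericyte or blood genes the value was 1.64, and in adventitial, myofibroblast and endothelial gates it was 1.64, 1.23 and 1.27, none of which passed there. Gm8797 (ENSMUSG00000103034) lies on chromosome 3 of mm10, 5750806 to 5751295 on the plus strand, a gene model annotated as protein coding in GENCODE M21 that resembles the polyubiquitin gene Ubb. Its 490-base transcript aligned to that of Ubb over 377 identical bases, with 6 mismatches and 1 gap base (98.2% identity). A stretch of the ubiquitin coding sequence of each, read 5′ to 3′ from the GENCODE M21 transcripts (Gm8797 from base 99, Ubb from base 1116, 120 bases each), is shown because within the aligned part, 383 of the 490 bases of Gm8797, the pair differs at only a few bases. Capitals mark the 4 mismatches in this window.
Gm8797: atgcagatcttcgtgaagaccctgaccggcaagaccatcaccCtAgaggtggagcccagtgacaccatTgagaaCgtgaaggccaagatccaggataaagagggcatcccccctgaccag
Ubb: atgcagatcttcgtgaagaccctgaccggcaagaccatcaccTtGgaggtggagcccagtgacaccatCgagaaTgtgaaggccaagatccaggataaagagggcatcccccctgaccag
Ubb itself stood at 4949, 6463, 2725 and 5583 CPM in WT A, WT B, mutant A and mutant B (-0.48, SE 0.32), and did not pass. How the authors' counting assigned reads from the aligned part of these 2 genes was not tested, so the value of Gm8797 is uncertain.

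Among genes with a mean of at least 20 CPM, the others with the smallest unadjusted p of those higher in mutants did not pass the adjustment. Ly6e, an interferon-inducible surface protein, had 45 and 59.1 CPM in WT and 90.6 and 85.2 in mutants (0.72, SE 0.22). The membrane-curving protein Mtss1 had 54.6 and 40.9 against 100 and 69.6 CPM (0.79, SE 0.23), the cathepsin-inhibitor-like Ctla2a 22.3 and 24.8 against 36.8 and 45.3 (0.77, SE 0.24), and the difference of the histone methyltransferase Dot1l was 0.75 (SE 0.23). Each had an edgeR adjusted p of 1.00, and in each both mutants lay above both WT libraries.

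VEGF signalling genes are of interest because the allele changes a VEGF receptor. In alveolar fibroblasts Kdr was at 7.97 and 2.48 CPM in WT and 3.79 and 5.66 in mutants, far under the 366 to 469 CPM of the endothelial gate. Flt1, the decoy-like receptor VEGFR1, stood at 6.72 to 14.0 CPM. The co-receptor Nrp1 had 374 and 298 CPM in WT and 306 and 290 in mutants (-0.21, SE 0.21). The ligand Vegfa had 138 and 164 CPM in WT and 200 and 187 in mutants (0.32, SE 0.21), with no overlap but without passing the test (edgeR adjusted p = 1.00), and the groups overlapped for Vegfd.

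Program genes were followed in 23 lists, chosen with earlier results of these data known, and Acta2 was the only member of any list that passed the test between genotypes. Over all tested genes the median log2 fold change was -0.0032 and 49.5% were above 0. The median of the 18 alveolar fibroblast genes outside the rule was 0.02, with 10 above 0 and 8 below. The widest difference among them was that of Mfap4 (-0.47, SE 0.26). For lipid handling, 12 of 18 genes were above 0 and the median was 0.05, and the most abundant, the lipid carrier Apoe, had 3018 and 2428 CPM in WT and 2624 and 3001 in mutants.

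Retinoid genes showed 4 of 10 above 0 and a median of -0.08. Rbp4, the retinol carrier of plasma, had 25.5 and 17.4 CPM in WT and 8.34 and 11.0 in mutants (-1.17, SE 0.31, edgeR adjusted p = 0.754). Lrat had 128 and 165 CPM in WT and 212 and 226 in mutants (0.54, SE 0.22). Both genes separated the groups without passing the adjustment, in opposite directions.

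No matrix gene passed the test. The fibrillar collagen list had 9 of 20 genes above 0 and a median of -0.03, with its 2 most abundant members being the proteoglycan Bgn (2876 to 3583 CPM) and fibronectin Fn1 (1244 to 1601 CPM). In the elastic fibre list 9 of 14 were below 0 with a median of -0.12, and both mutants lay below both WT libraries in 6 of the 14, where 11.4% of all genes did. Mfap2, a microfibril protein, had 51.4 and 49.2 CPM in WT and 19.7 and 37.5 in mutants (-0.83, SE 0.29), and did not pass. Basement membrane genes were below 0 in 10 of 14, with a median of -0.12, among them the laminin chain Lama2 (147 and 171 against 116 and 124 CPM). Matrix proteases and inhibitors had 6 of 14 above 0 (median -0.06), with the collagenolytic cathepsin Ctsk at 26.7 and 31.0 CPM in WT and 19.7 and 19.4 in mutants (-0.59, SE 0.24).

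Of the ligands for epithelium and vessels, 13 of 25 were above 0 (median 0.08), both mutants lying above both WT libraries in 8 (14.6% of all genes) and below them in 6 (11.4% of all genes). Igf1, the insulin-like growth factor, had 64.1 and 71.1 CPM in WT and 101 and 82.0 in mutants (0.40, SE 0.21). Angpt1, which activates the endothelial receptor Tie2, stood at 344, 412, 438 and 390 CPM in WT A, WT B, mutant A and mutant B. The 36 tested receptors had a median of 0.01, with 19 above 0. The list of NO, cyclic GMP and prostacyclin response had 8 of 11 below 0 (median -0.12), and without members with muscle, pericyte or blood genes its median was 0.05. The soluble guanylate cyclase subunit Gucy1b1, for instance, was at -0.48 over all members and 0.07 without those.

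The list of TGF-beta targets and myofibroblast activation had 14 of 18 below 0 and a median of -0.18, with 7 in which both mutants lay below both WT libraries (11.4% of all genes). Without members with muscle, pericyte or blood genes its median was 0.01. Myosin light chain Myl9, the next in the list by p after Acta2, had 109 and 186 CPM in WT and 62.9 and 59.8 in mutants (-1.30, SE 0.26, edgeR adjusted p = 0.123), and 0.39 without those members. Integrins had a median of -0.07 (5 of 11 above 0), and the median was 0.02 without those members.

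Chaperones formed the list with the lowest median. Of 15 chaperone and heat shock genes, 14 were below 0, the median was -0.34, and both mutants lay below both WT libraries in 7, where 11.4% of all genes did. The median was -0.32 between the A libraries, -0.30 between the B libraries and -0.30 without members with muscle, pericyte or blood genes. None passed the test. The disaggregase partner Hsph1 had 238 and 216 CPM in WT and 190 and 152 in mutants (-0.44, SE 0.20), the mitochondrial co-chaperonin Hspe1 380 and 443 against 304 and 339 (-0.39, SE 0.21), and the inducible Hspa1a 1371 and 3468 against 1551 and 1713 (-0.61, SE 0.34). WT B stood apart for Hspa1a, and the list's median was -0.20 without WT B and -0.16 without mutant A. Immediate early genes, which dissociation is known to raise, had 16 of 21 below 0 and a median of -0.09, and only 1 of them had both mutants below both WT libraries. Atf3 stood at 1350 and 2523 CPM in WT and 920 and 1595 in mutants (-0.65, SE 0.33).

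Interferon response genes were above 0 in 18 of 23 (median 0.15), with both mutants above both WT libraries in 4 (14.6% of all genes). Leukocyte markers, summing to 72.5 and 101 CPM in WT and 120 and 122 in mutants, were above 0 in 6 of 6 tested (median 0.74), with both mutants above both WT libraries in 4, and their part in the interferon values was not tested. Ifi27l2a had 220 and 241 CPM in WT and 249 and 404 in mutants (0.48, SE 0.25). The class I antigen presentation list had 6 of 8 above 0 and a median of 0.19, with the peptide transporter Tap1 at 11.2 and 16.1 CPM in WT and 22.0 and 17.7 in mutants (0.50, SE 0.29). Without mutant B these medians were 0.02 and 0.03, and without mutant A the first was 0.33, while without WT A the second was 0.05. Complement genes had 8 of 12 above 0 (median 0.10), and chemokines, cytokines and acute phase genes 13 of 17 below 0 (median -0.13). Saa3, an acute phase serum amyloid, had 151 and 143 CPM in WT and 99.3 and 29.0 in mutants (-1.25, SE 0.37, edgeR adjusted p = 1.00), and a few cells held nearly all of it.

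**Figure D4:**
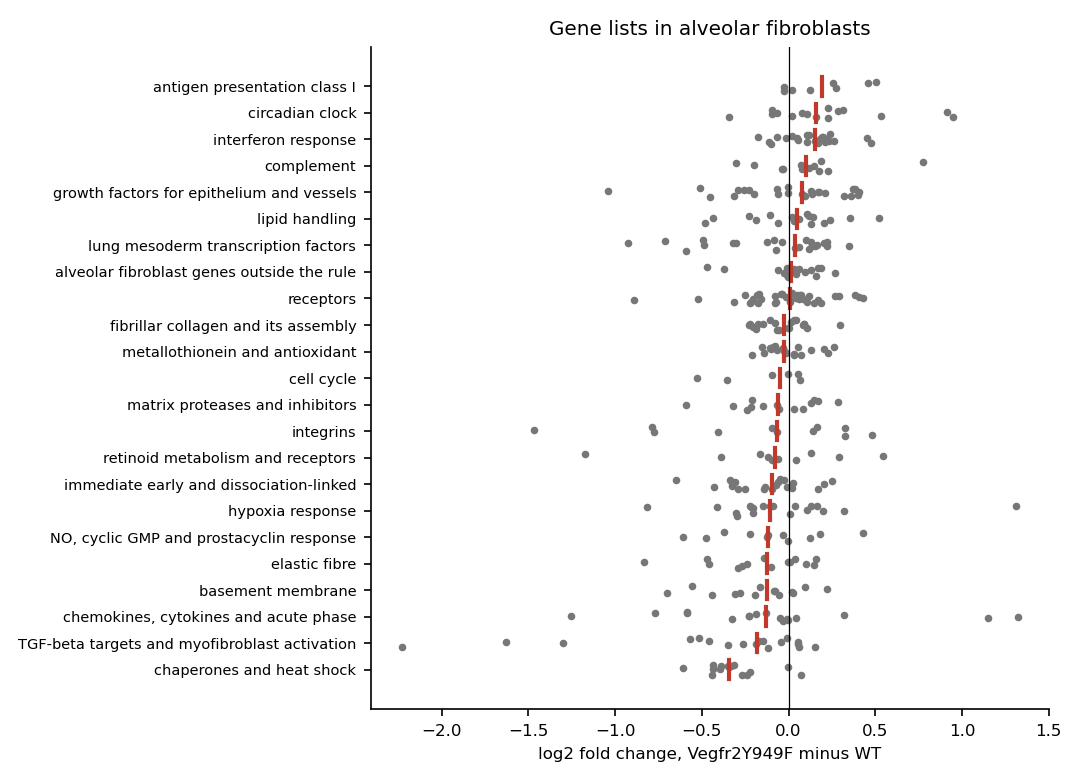
Log2 fold change (mutants minus WT) of each tested member of the 23 gene lists in alveolar fibroblasts, with the list's median as a red bar, ordered by the median. Chaperones have the lowest median (-0.34) and class I antigen presentation the highest (0.19), and the point furthest left, in the TGF-beta list, is Acta2 (-2.23).

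Clock genes were above 0 in 11 of 15 (median 0.16), and both mutants lay above both WT libraries in 5, where 14.6% of all genes did, and the median was 0.07 without mutant A. Per3, a period gene of the repressor arm, had 13.1 and 9.92 CPM in WT and 22.0 and 22.6 in mutants (0.92, SE 0.28), and Ciart, another repressor, 7.17 and 5.37 against 10.6 and 14.1 (0.95, SE 0.37). Neither passed the adjustment. The hour at which lungs were taken is not given in the labels used here. The hypoxia response list had 11 of 19 below 0 (median -0.11), the metallothionein and antioxidant list 11 of 19 below 0 (median -0.03) and the lung mesoderm transcription factor list 12 of 23 above 0 (median 0.04). Of the cell cycle list 6 genes were tested (median -0.05), and the inhibitor Cdkn1a led it in level, with 246 and 300 CPM in WT and 153 and 233 in mutants.

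Several genes with a small unadjusted p that did not pass lie near Kdr on chromosome 5, and they are named here after their values were seen. Stbd1, which binds glycogen, had 47 and 64.9 CPM in WT and 2.65 and 19.4 in mutants (-2.33, SE 0.49, edgeR adjusted p = 0.185). It lies at 92603041 to 92606579, 16.67 Mb from Kdr (75932827 to 75978458). Scarb2, a lysosomal membrane protein, had 153 and 186 CPM in WT and 89.8 and 92.6 in mutants (-0.93, SE 0.21, adjusted p = 0.292), 16.51 Mb from Kdr. Adgrl3, an adhesion receptor of the latrophilin family, had 81.3 and 69.8 CPM in WT and 43.2 and 41.0 in mutants (-0.88, SE 0.21, adjusted p = 0.449), 5.09 Mb from Kdr. Of the 86 tested genes within 20 Mb of Kdr, 5 had an unadjusted p under 0.05 (5.81%), all lower in mutants, against 2.10% of all genes with a position. In the same 86 genes both mutants lay above both WT libraries in 14 (14.6% of all tested genes) and below them in 7 (11.4% of all tested genes). The window was chosen after its leading genes had been seen, and whether position plays a part was not tested. In the adventitial gate Stbd1 was at -3.05 and Scarb2 at -0.78, and in the endothelial gate at -1.01 and -0.07, and none of these passed.

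Kcnk1, a potassium channel on chromosome 8, was nearly absent from WT: its UMIs numbered 1 in WT A, 0 in WT B, 12 in mutant A and 59 in mutant B, in 9 and 26 cells of the mutant libraries. It did not pass the main test (edgeR adjusted p = 0.108). Without the exclusion on adventitial genes, an alternative chosen after the results were seen, edgeR called 2 genes, Kcnk1 and Gm8797.

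Whether the genotype difference in alveolar fibroblasts differed from that in other cells was tested as an interaction. Against the adventitial gate, edgeR called 3 of 10191 genes (0.0294%), of which Acta2 was -2.85 further down in alveolar than in adventitial cells (adjusted p = 0.00866). The adventitial gate itself had 21.1 and 43.0 CPM of Acta2 in WT and 75.9 and 35.3 in mutants. F830016B08Rik, a gene of the interferon-inducible GTPase family on chromosome 18, had 69.3 and 84.3 CPM in WT and 88.7 and 91.9 in mutants in alveolar cells, but 140 and 111 against 3.03 and 41.4 in the 50 to 72 cells per library of the adventitial gate (difference 2.57, adjusted p = 0.0297). The third gene was the chemokine Cxcl9, read in few cells. No gene was called without mutant A (375 at an unadjusted p under 0.05), and 11, 44 and 13 were called without WT A, WT B and mutant B.

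Against the endothelial gate, edgeR called 9 of 14412 genes (0.0624%): Acta2, Myh11, Sncg, Tpm2 and Mustn1, the haemoglobin genes Hbb-bs and Hba-a2, and Adgrl3 and Hp. Adgrl3 was lower in mutants in alveolar fibroblasts and had 86.0 and 82.8 CPM in WT and 144 and 123 in mutants in endothelial cells, so the groups separated in both cell types and in opposite directions (interaction -1.49, SE 0.17, adjusted p = 0.00253). Without members with muscle, pericyte or blood genes, Adgrl3 was the 1 gene called. Haptoglobin (Hp) had 129 and 180 CPM in WT and 95.5 and 55.9 in mutants in alveolar fibroblasts and at most 6.59 CPM in endothelial cells (-1.34, SE 0.20, adjusted p = 0.0248). A single barcode held 191 of the 435 Hp UMIs of WT B. The genotype comparison within the other gates called 0 of 5729 genes in adventitial cells (195 at an unadjusted p under 0.05), 0 of 2378 in myofibroblasts (103) and 0 of 14450 in endothelial cells (127).

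Alveolar fibroblasts also varied among themselves. With every cell thinned to 1000 UMIs, the variance over the mean of a gene's counts was highest, as a mean of 4 libraries, for Malat1 (38.4), Hbb-bs (34.9), Hba-a1 (17.5), Mgp (14.5) and Spp1 (14.1). For Hbb-bs the ratio was 0.99 in both WT libraries, 122 in mutant A and 15.6 in mutant B, and for Hba-a1 0.99 in both WT libraries, 66.3 in mutant A and 1.74 in mutant B, so mutant A sets both ranks. Mgp, the calcification inhibitor matrix Gla protein, was read in 93.7% to 97.1% of thinned cells and had 18283 and 15683 CPM in WT and 19527 and 17488 in mutants. Malat1, a nuclear RNA, was read in 67.1% to 83.5% of thinned alveolar fibroblasts and in 91.0% to 97.0% of thinned endothelial cells, and before thinning in 72.7% to 90.7% of alveolar fibroblasts.

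Spp1, Saa3 and Cxcl9 sat in few cells. Spp1, the matricellular protein osteopontin, was read in 1.67% to 2.64% of thinned cells (0.492% to 1.20% in endothelial cells), and the members with muscle genes held 84.5% of its UMIs in WT A, 62.8% in WT B, 26.9% in mutant A and 56.5% in mutant B. Saa3 was read in 21 cells of WT A, 13 of WT B, 21 of mutant A and 6 of mutant B. After thinning it was read in 0.625% to 3.08% of alveolar fibroblasts and in 0.0176% to 0.172% of endothelial cells, and the members with muscle genes held none of its UMIs. Cxcl9 was read in 7 cells of mutant A, in 1 cell of WT A, in 0 of WT B and in 2 of mutant B, and a single cell of mutant A held 134 of its 147 UMIs.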

How the data were processed

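The authors deposited whole-number UMI counts per gene and barcode for 4 libraries, not normalized, made with Cell Ranger 6.1.1 on build mm10, and Seurat 4.1.0, fastp and UMI-tools were also named, per the submitters' processing notes. The gene annotation was not given in the sources used here. Positions and transcripts come from GENCODE M21, where 31107 of 31253 gene identifiers were found. Barcodes were filtered and gated as stated above, and no doublets were removed in the main analysis; scores came from Scrublet (scanpy 1.11.5). Counts were summed per library over the gated cells, since cells are not replicates, and scaled to CPM for levels. Genotypes were compared by the quasi-likelihood test of edgeR 4.0.16 (under R 4.3.3, with TMM factors, filterByExpr, all 4 libraries, no covariate, Benjamini-Hochberg adjustment over all genes tested). Interactions were fitted with terms for library, for gate, and for genotype within gate. The test was tried on simulated counts first. DESeq2 1.42.0 was an alternative.

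The adventitial gate needed at least 3 of its 4 genes, the myofibroblast gate at least 2 of its 3, and the endothelial gate at least 2 UMIs of Cdh5 and Cldn5 together. Members, gene lists and tests were chosen with earlier results of these data known. Genes were named by a rule: called genes, the smallest unadjusted p (mean of at least 20 CPM) where fewer than 5 were called in a direction, in each list the 3 smallest p and the 2 highest levels, the 15 highest ratios to other gates, the 10 most variable genes over cells, and called interactions. The text gives those the results turn on. Stbd1, Scarb2, Kcnk1, Ubb, Cxcl9 and the sex-linked genes were added after values were seen. Of the list genes, 3 were not found under any symbol tried.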

Additional observations from a re-analysis of the deposited data

Results flagged for a closer look

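In each of the following genes the genotype difference in alveolar fibroblasts differed from that in another cell type by edgeR's interaction test at an adjusted p under 0.05, and each value is the log2 fold change (mutants minus WT) in alveolar fibroblasts minus that in the other type. Against adventitial cells these were Acta2 (-2.85), F830016B08Rik (2.57) and Cxcl9 (16.32). The value of Cxcl9 is a fit against 0 CPM in both adventitial mutant sums, depends on the prior count and is no bound. Adventitial cells had 165 CPM of Cxcl9 in WT A and 5.06 in WT B.

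Against endothelial cells they were Acta2 (-2.51), Myh11 (-2.78), Sncg (-3.65), Tpm2 (-1.55), Mustn1 (-1.85), Hp (-1.34), Adgrl3 (-1.49), Hbb-bs (3.56) and Hba-a2 (3.63). The 66 members with muscle genes held most UMIs of Acta2, Myh11 and Sncg in every library. For Acta2 and Myh11 this follows in part from the choice, as both are among the genes that define these members, while Sncg is not. They held 68.1% and 73.1% of Tpm2 and 78.9% and 80.1% of Mustn1 in WT A and B, but 38.5% and 25.9% of Tpm2 and 37.7% and 24.6% of Mustn1 in mutants A and B. The haemoglobin UMIs of the mutants lay mainly in 2 barcodes. Adgrl3 moved in opposite directions in the 2 cell types, with both mutants below both WT libraries in alveolar fibroblasts and above them in endothelial cells.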

How the results depend on the processing

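The 12 calls between genotypes in alveolar fibroblasts were 12 with RLE size factors, 11 with DESeq2, 12 with a stricter cell filter and 16 without the highest 8% of doublet scores. They were 0 with no low-count filter (281 at an unadjusted p under 0.05), 3 with at least 4 of 6 alveolar genes, 0 with stricter exclusion genes, a setting that leaves fewer cells (138 at an unadjusted p under 0.05), and 6 without cells with blood RNA. The 3 with at least 4 of 6 alveolar genes were the haemoglobin genes Hbb-bs, Hba-a1 and Hba-a2, and 0 genes were called lower in mutants there. Leaving out 1 library gave 0 to 35 calls, the lone sample of an arm being assumed to vary like the others. Alternatives chosen after seeing the data gave 2 with no exclusion on adventitial genes, 1 without members with muscle genes and 0 without members with muscle, pericyte or blood genes. Without members with muscle genes, and without members with muscle, pericyte or blood genes, Acta2 turned to 0.46 and 0.36 (SE 0.34 and 0.35). S100a4 turned to 0.47 and 0.45 (SE 0.47 and 0.48), while Tpm2 (-0.62 and -0.65) and Mustn1 (-0.22 in both) kept their direction. With the set letter as a replicate block there were 36 calls. Deviations of WT A and mutant A from their group means correlated at r = 0.25 over 10443 genes, and 2 pairs that share only a letter are not shown to be paired.

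The interaction calls were 3 against adventitial and 9 against endothelial cells. They were 25 and 62 with no low-count filter, 1 and 9 with at least 4 of 6 alveolar genes, 2 and 1 without members with muscle, pericyte or blood genes, and 0 to 44 and 14 to 76 when 1 library was left out. Except where a value or the setting itself shows it, the cause was not tested. The share of alveolar fibroblasts was 0.725 percentage points higher in mutants, 0.367 to 1.19 under the other settings with kept barcodes as denominator, 2.98 as a share of non-endothelial, non-leukocyte, non-epithelial barcodes, and 0.176 to 1.27 when 1 library was left out.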

Other observations

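RNA of some cell types that the rule kept out was also read in endothelial barcodes of the same library. Club and ciliated cell markers (6 genes, with none called and 1 at 0 in every library) summed to 492 CPM in alveolar fibroblasts of WT A, 776 in WT B, 1043 in mutant A and 548 in mutant B, and to 452, 789, 822 and 474 CPM in endothelial barcodes. Neutrophil markers (5 genes) summed to 171 and 188 CPM in the A libraries of WT and mutants and to 31.4 and 10.6 in the B libraries, and in endothelial barcodes to 64.1 and 185 in the A libraries and 48.5 and 17.9 in the B libraries. In the A libraries a single cell held 233 of the 268 S100a9 UMIs of WT A and another 99 of the 241 of mutant A. The share of alveolar fibroblasts with a UMI of S100a9, a neutrophil calcium-binding protein, was 7.69% and 24.7% in the A libraries and 12.7% and 2.08% in the B libraries. Their part in the genotype differences was not tested.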
